A study of Mus musculus with 24 samples.

Results

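The interleukin-1 (IL-1) family, its receptors and the inflammasome were described by 9 genes of the 14912 in the deposited table. They were chosen by symbol: the ligands Il1b, Il18 and Il33, the receptor chains Il1r1, Il1rl1 and Il1rap, and the inflammasome components Nlrp3, Pycard and Casp1. All 9 were present in the table and passed the filter on low values, and none had a value below 0. RNA-seq of the left ventricle of male wild-type C57BL/6J mice was compared between a hypertensive left ventricular hypertrophy (hypertensive-LVH) group and a control group, with 12 samples each in the table used here. The hypertensive-LVH group received angiotensin II (ANG II), the peptide that constricts vessels and raises blood pressure, at 1500 ng/kg/min for 7 days from a subcutaneous osmotic minipump, and the control group received saline by the same route. Both groups were wild type with no transgene, and the hearts were flushed with saline when collected. The age of the mice is not given in the sources used here. The study's methods call the sequenced samples of a group biological replicates and state more of them per group than the 12 in the table used here. The p-values rest on the spread between the samples in the table.

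Il1b encodes IL-1β, which signals through the receptor encoded by Il1r1 together with the accessory chain encoded by Il1rap. Il33 encodes IL-33, a nuclear protein of stromal and endothelial cells that is released on damage and binds ST2, the product of Il1rl1, which uses the same accessory chain; a soluble form of ST2 acts as a decoy and is known as a blood marker of cardiac strain. IL-1β and IL-18 are made as inactive precursors that caspase-1 (Casp1) cuts, and caspase-1 is activated where a sensor such as NLRP3 joins the adaptor ASC (Pycard). IL-33, by contrast, is active in its full-length form, and the receptors of all these ligands pass their signal on through MyD88 and NF-κB.

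Il18, Il1r1 and Nlrp3 were higher in the hypertensive-LVH group, 1.88-fold, 1.38-fold and 1.44-fold by the ratio of the group means. Il33, Il1rap and Casp1 had higher means without passing the test, and Il1b, Il1rl1 and Pycard had means slightly below those of the control group. Thus 3 of the 9 genes passed at an adjusted p under 0.05, against 33.5% of all 14026 genes tested; 3 were higher, against 20.9% of all genes, and 0 were lower, against 12.6%. The share of the 9 genes that passed was therefore near that of all genes. At an unadjusted p under 0.05, 6 of the 9 were higher, against 29% of all genes, and 0 lower, against 15.7%. The balance of all calls depends on the scale: 62.3% of them were higher as deposited, 39.6% after quantile normalization and 51.7% after median-ratio scaling, and the sign of each of the 9 genes was the same under all 3. None of the 9 both passed the test and had an absolute log2 fold change over 0.5, the criteria for a differentially expressed gene, which 5.92% of all genes met. Il33 was over 0.5 (0.51) without passing the test. The median log2 fold change of the 9 was 0.23 beside 0.05 over all genes.

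The values are in FPKM, the number of sequenced fragments scaled to the length of the transcript and to the size of the library, after a further adjustment that left 2741 values below 0 in the table. Exact ties between samples of a group were counted, leaving out 278 genes whose values were all whole hundredths. There were 215 to 541 tied genes within a set and 0 between sets. These ties showed that the values of each group had been adjusted in 4 sets of 3 consecutive samples. Ties were not counted between the groups. The sets of both groups were joined here by sample number, so an adjustment shared by both groups is not shown. The sets are named by their sample numbers, such as samples 4 to 6. Samples 4 to 6 stood apart: 74.6% of all genes tested were higher in their hypertensive-LVH samples than in their control samples, with a median log2 difference of 0.18, whereas in the other sets 45.3% to 55.8% were higher and the medians lay between -0.02 and 0.03. Without samples 4 to 6, 20.1% of all genes and 0 of the 9 genes passed the test by limma, and 2 of the 9 (Il18 and Casp1) had an unadjusted p under 0.05, against 33.4% of all genes. The sequencing depth is not given in the sources used here, and a sample's values summed to between 460715 and 515185 for hypertensive-LVH samples and to between 482319 and 567727 for controls. Cardiomyocyte markers such as Myh6 and Actc1 were abundant in every sample, with a summed level of the 8 markers of 33485 to 54830 FPKM, which fits the labelled tissue, although the extraction text of the labels names another cell source.

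Positions and sequences describe the genes and not these samples; the genome build behind the deposited values is not given in the sources used here. In GRCm38, Il1r1 (chr1:40225080-40317257) and Il1rl1 (chr1:40429570-40465415) lie on the + strand in a cluster of receptor genes in the order Il1r2, Il1r1, Il1rl2, Il1rl1, Il18r1 and Il18rap. Il1rap lies on chr16:26581704-26730117. The ligand genes are apart from each other, Il1b on chr2:129364570-129371139, Il18 on chr9:50554827-50581840 and Il33 on chr19:29925114-29960718. Of the inflammasome genes, Nlrp3 lies on chr11:59541568-59566956, Pycard on chr7:127989708-127993867, and Casp1 (chr9:5298517-5307265) beside its relative Casp4 (chr9:5308828-5336783).

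The 250 bases before each RefSeq transcription start (GRCm38.p6) were searched on both strands for 5 short motifs: NF-κB (GGGA and TTCC with any 2 bases between them), AP-1 (TGANTCA), PU.1 (GAGGAAG), an interferon-response element (GAAA and GAAA with any 2 bases between them) and a TATA box (TATAAA). All 9 genes matched the RefSeq table, with 13 start windows in all. The NF-κB letters were in 0 of the 13 windows and in 1.21% of the 32851 windows of all genes, the AP-1 letters in 0 and 6.75%, and the interferon-response letters in 0 and 2.98%. The PU.1 letters were in 2 windows and 10.6% of all, and the TATA letters in 4 windows, of Il1b, Il18 and Il33, and 12.4% of all. A match is a run of letters and not a shown binding site, and no match says only that these letters are not in the window. The windows of Il18, the gene with the largest ratio of group means, and of Nlrp3 and Pycard, the windows with PU.1 letters, are shown 5′ to 3′ with the matches in capitals (on the opposite strand where the letters read reversed and complemented), followed by both windows of Il1rl1. Il1rl1 is shown with both because its FPKM value is 1 number for all transcripts of the gene, so that soluble and membrane ST2 cannot be told apart here; neither window held any of the 5 motifs.
Il18, chr9:50554450-50554699, + strand: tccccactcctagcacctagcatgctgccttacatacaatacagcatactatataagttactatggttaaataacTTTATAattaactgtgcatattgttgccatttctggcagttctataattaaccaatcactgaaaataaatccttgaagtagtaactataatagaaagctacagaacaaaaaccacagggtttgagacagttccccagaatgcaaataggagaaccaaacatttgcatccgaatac
Nlrp3, start 2, chr11:59542436-59542685, + strand: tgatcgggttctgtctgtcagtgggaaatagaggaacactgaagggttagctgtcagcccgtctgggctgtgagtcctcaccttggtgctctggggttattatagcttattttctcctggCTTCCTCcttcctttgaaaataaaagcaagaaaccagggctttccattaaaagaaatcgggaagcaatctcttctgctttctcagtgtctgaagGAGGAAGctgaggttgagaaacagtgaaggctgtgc
Pycard, chr7:127993868-127994117, - strand: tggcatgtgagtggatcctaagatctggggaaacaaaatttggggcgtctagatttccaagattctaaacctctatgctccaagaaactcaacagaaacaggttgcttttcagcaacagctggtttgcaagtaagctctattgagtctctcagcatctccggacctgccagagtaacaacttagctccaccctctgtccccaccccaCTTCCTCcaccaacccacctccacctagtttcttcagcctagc
Il1rl1, start 1, chr1:40429320-40429569, + strand: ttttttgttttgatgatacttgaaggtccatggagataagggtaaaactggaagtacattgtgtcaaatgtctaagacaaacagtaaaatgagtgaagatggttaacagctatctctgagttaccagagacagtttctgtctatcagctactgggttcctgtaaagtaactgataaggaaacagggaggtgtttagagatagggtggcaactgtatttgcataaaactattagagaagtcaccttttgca
Il1rl1, start 2, chr1:40439379-40439628, + strand: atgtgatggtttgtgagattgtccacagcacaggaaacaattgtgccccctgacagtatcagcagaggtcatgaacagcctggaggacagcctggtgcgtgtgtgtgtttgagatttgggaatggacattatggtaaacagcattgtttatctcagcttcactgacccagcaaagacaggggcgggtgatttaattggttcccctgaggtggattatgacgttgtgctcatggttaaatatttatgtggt

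Among the ligands, Il18 rose. Its FPKM ran from 0.357 through a median of 0.469 to 0.992 in the control group and from 0.515 through 0.855 to 2.28 in the hypertensive-LVH group (means 0.570 ± 0.233 and 1.07 ± 0.568, SD, n = 12 each). The ranges overlapped, but every hypertensive-LVH sample lay above the control median, 5 lay above the highest control and 6 controls lay below the lowest hypertensive-LVH sample. On the log2(FPKM + 1) scale the difference was 0.37 ± 0.11 (SE; adjusted p = 0.0157). A pseudocount of 1 understates the change of a gene at this level, and with 0.1 the difference was 0.74 (95% confidence interval 0.29 to 1.20). By set, in the order of the sample numbers, the log2 difference was 0.24, 0.56, 0.70 and -0.02. In samples 4 to 6 and 7 to 9 every hypertensive-LVH value lay above every control value, whereas in samples 10 to 12 the groups did not separate. Control samples 8 and 9 were exactly tied at 0.357 FPKM, the lowest control value, a tie of the kind described above. Without samples 4 to 6 the difference was 0.31 (adjusted p = 0.115), and without samples 7 to 9 it was 0.26 (adjusted p = 0.1004).

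Il33 had the widest range of the 9 genes, from 0.308 through a median of 3.36 to 6.64 FPKM in the control group and from 1.63 through 4.65 to 12.9 in the hypertensive-LVH group (means 3.29 ± 1.61 and 5.11 ± 2.81, SD, n = 12 each). Of the hypertensive-LVH samples 10 lay above the control median, but 1 lay above the highest control and 2 controls lay below the lowest hypertensive-LVH sample. With a pseudocount of 0.1 the difference was 0.70, below the 0.74 of Il18. With a pseudocount of 1, the log2 difference of 0.51 ± 0.24 (SE, 95% confidence interval 0.03 to 1.00) was the largest of the 9 genes and did not pass the test (adjusted p = 0.0943). It was largest in samples 4 to 6, where the mean was 7.39 FPKM in the hypertensive-LVH samples and 1.21 in the controls, a log2 difference of 1.86. In the other sets the log2 difference was 0.04 for samples 1 to 3, 0.23 for 7 to 9 and -0.07 for 10 to 12. Without samples 4 to 6 it was 0.07 (95% confidence interval -0.29 to 0.42; adjusted p = 0.817).

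Il1b did not differ beyond the spread between samples. Its values ran from 1.56 through a median of 2.00 to 3.01 FPKM in the control group and from 0.504 through 1.91 to 3.75 in the hypertensive-LVH group (means 2.09 ± 0.468 and 1.94 ± 0.902, SD, n = 12 each). The hypertensive-LVH samples lay on both sides of the controls, 6 above and 6 below the control median, 4 below the lowest control and 1 above the highest. The log2 difference was -0.12 ± 0.14 (SE; 95% confidence interval -0.41 to 0.17; adjusted p = 0.521), an interval that leaves room for a change in either direction. By set it was -0.18, 0.06, 0.14 and -0.52 in sample order, and without samples 10 to 12 it was 0.01 (adjusted p = 0.972), with the sign turned.

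**Figure D1:**
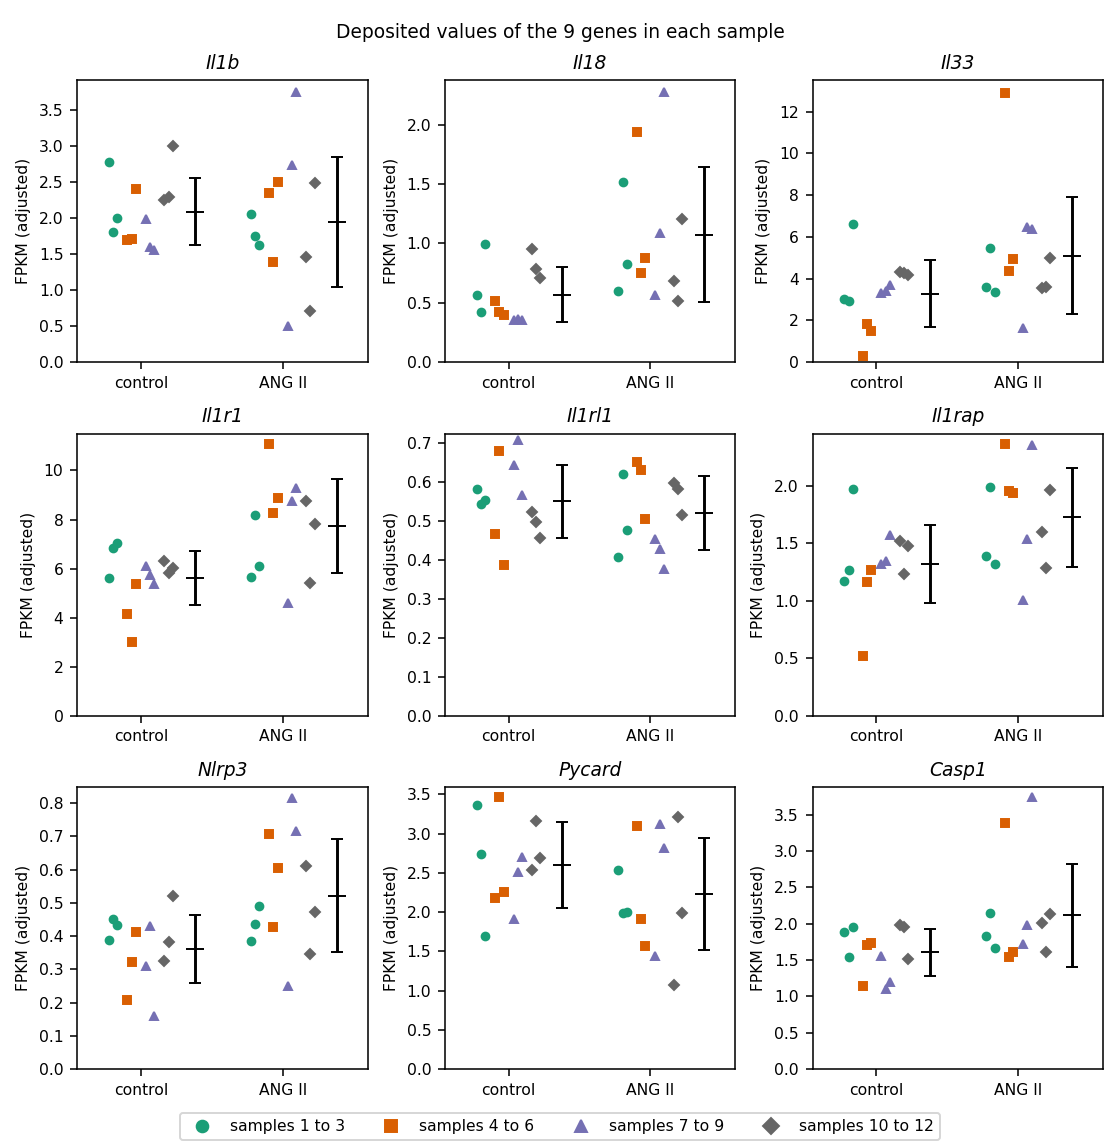
Adjusted FPKM (y axis, linear from 0, its own scale in each panel) of the 9 genes in each of the 12 control and 12 hypertensive-LVH (ANG II) samples; colour and shape give the set of samples, and the black bars the group mean ± SD. In samples 7 to 9 the groups are apart for Il18 and Casp1 (hypertensive-LVH higher) and for Il1rl1 (lower), and in samples 4 to 6 for Il18, Il33, Il1r1, Il1rap and Nlrp3 (higher), while over all samples the groups overlap for each of the 9 genes.

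Of the receptor chains, Il1r1, the signalling receptor of IL-1, rose and was the most highly expressed of the 9 genes. It ran from 3.01 through a median of 5.78 to 7.05 FPKM in the control group and from 4.59 through 8.21 to 11.1 in the hypertensive-LVH group (means 5.62 ± 1.11 and 7.73 ± 1.91, SD, n = 12 each). Above the highest control lay 8 hypertensive-LVH samples, and 3 lay below the control median. The log2 difference was 0.39 ± 0.12 (SE; 95% confidence interval 0.14 to 0.63; adjusted p = 0.0150). It had the same sign in all 4 sets, at 0.02, 1.02, 0.29 and 0.22 in sample order. Samples 4 to 6 gave the largest of these, with means of 9.41 and 4.18 FPKM, and without them the difference was 0.18 (95% confidence interval -0.05 to 0.40; adjusted p = 0.266).

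Il1rap, the accessory chain shared by the IL-1 and IL-33 receptors, ran from 0.515 through a median of 1.29 to 1.97 FPKM in the control group and from 1.00 through 1.77 to 2.36 in the hypertensive-LVH group (means 1.32 ± 0.338 and 1.72 ± 0.433, SD, n = 12 each). Of the hypertensive-LVH samples 10 lay above the control median and 3 above the highest control. The log2 difference of 0.23 ± 0.09 (SE; 95% confidence interval 0.04 to 0.42) narrowly missed the threshold (adjusted p = 0.0525), and leaving out 1 sample gave an adjusted p between 0.0193 and 0.0952. Its sign was positive in all 4 sets (0.06, 0.66, 0.10 and 0.11 in sample order), and without samples 4 to 6 the difference was 0.09 (adjusted p = 0.496).

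Il1rl1, which encodes ST2, showed no difference beyond the spread. Its values ran from 0.387 through a median of 0.548 to 0.706 FPKM in the control group and from 0.376 through 0.509 to 0.649 in the hypertensive-LVH group (means 0.550 ± 0.0940 and 0.520 ± 0.0939, SD, n = 12 each). The groups covered nearly the same range. The log2 difference was -0.03 ± 0.04 (SE; 95% confidence interval -0.11 to 0.05; adjusted p = 0.601), and with a pseudocount of 0.1 it was -0.07 (95% confidence interval -0.28 to 0.14). The sign differed between sets (-0.06, 0.08, -0.21 and 0.07 in sample order), and in samples 7 to 9 every hypertensive-LVH value lay below every control value. After quantile normalization, which gives every sample the same distribution of values, the difference was -0.12 (adjusted p = 0.0364), and without samples 7 to 9 it was 0.03 (adjusted p = 0.603).

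**Figure D2:**
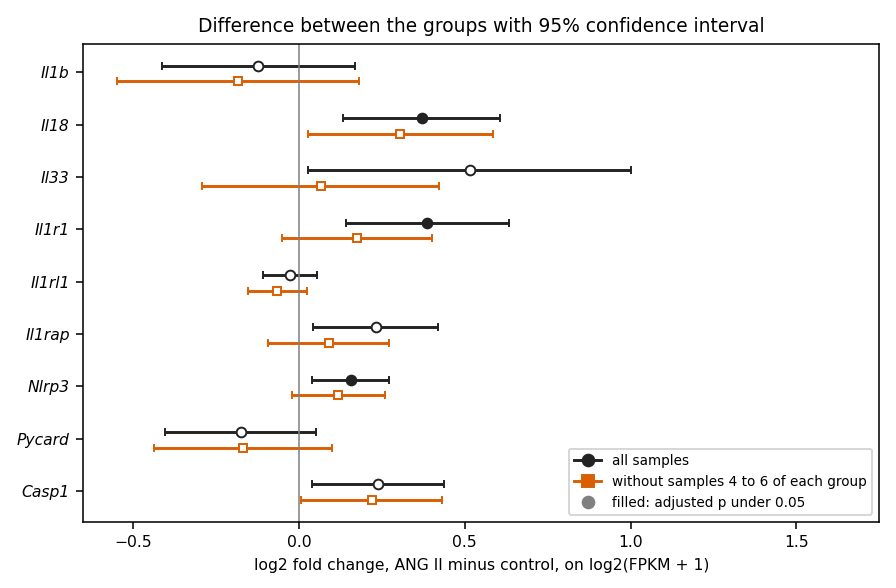
Log2 fold change of the 9 genes on the log2(FPKM + 1) scale (x axis), hypertensive-LVH minus control, with 95% confidence intervals, from all samples (black circles) and without samples 4 to 6 of each group (orange squares); filled symbols have an adjusted p under 0.05. Il18, Il1r1 and Nlrp3 are filled with all samples, and no symbol is filled without samples 4 to 6.

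Of the inflammasome components, the sensor Nlrp3 rose from the lowest level of the 9 genes in the control group. It ran from 0.161 through a median of 0.386 to 0.521 FPKM in the control group and from 0.249 through 0.481 to 0.816 in the hypertensive-LVH group (means 0.362 ± 0.103 and 0.522 ± 0.170, SD, n = 12 each). The ranges overlapped, with 9 hypertensive-LVH samples above the control median and 5 above the highest control. The log2 difference was 0.16 ± 0.06 (SE; adjusted p = 0.0356), and 0.42 with a pseudocount of 0.1. The sign was positive in all 4 sets (0.01, 0.27, 0.28 and 0.07 in sample order). The call was close to the threshold: it was lost when any of 10 single samples was left out (adjusted p = 0.05004 to 0.0662, namely hypertensive-LVH samples 5, 6, 7, 8 and 12 and control samples 4, 6, 8, 9 and 12), without samples 4 to 6 (0.12; adjusted p = 0.221), and after quantile normalization (0.07; adjusted p = 0.316).

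Casp1, the protease that cuts the precursors of IL-1β and IL-18, ran from 1.10 through a median of 1.63 to 1.98 FPKM in the control group and from 1.55 through 1.91 to 3.75 in the hypertensive-LVH group (means 1.61 ± 0.322 and 2.12 ± 0.714, SD, n = 12 each). Of the hypertensive-LVH samples 6 lay above the highest control and none below the lowest. The log2 difference of 0.24 ± 0.10 (SE; 95% confidence interval 0.04 to 0.44) did not pass the test (adjusted p = 0.0581; 0.0435 to 0.109 with 1 sample left out). It was largest in samples 7 to 9, at 0.57, where every hypertensive-LVH value lay above every control value, and was 0.04, 0.29 and 0.05 in samples 1 to 3, 4 to 6 and 10 to 12. Without samples 4 to 6 it was 0.22 (adjusted p = 0.139).

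Pycard, the adaptor between sensor and caspase, had a lower mean in the hypertensive-LVH group without passing the test. Its values were 1.70 to 3.47 FPKM with a median of 2.61 in the control group and 1.07 to 3.21 with a median of 2.00 in the hypertensive-LVH group (means 2.60 ± 0.546 and 2.23 ± 0.717, SD, n = 12 each). Below the control median lay 8 hypertensive-LVH samples, and 3 lay below the lowest control. The log2 difference was -0.18 ± 0.11 (SE; 95% confidence interval -0.40 to 0.05; adjusted p = 0.219), with -0.16, -0.20, 0.01 and -0.35 by set in sample order. The means of the sensor, adaptor and protease of the NLRP3 inflammasome did not share a direction, but of these genes only Nlrp3 passed the test.

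The 4 genes Il1r1, Il1rap, Nlrp3 and Casp1 were higher in the hypertensive-LVH samples of all 4 sets, against 21.8% of all genes tested, and 0 of the 9 were lower in all sets, against 12.8%. Whether the difference between the groups itself differed between the sets was tested with an interaction of set and group. It passed in 0 of the 9 genes by limma, against 7.49% of all genes, and 3 of the 9 had an unadjusted p under 0.05, against 25% of all genes. These were Il33 (p = 0.00575, adjusted p = 0.0621), Il1r1 (p = 0.0143, adjusted p = 0.104) and Il1rl1 (p = 0.0467, adjusted p = 0.193), from this fit across all genes with limma. The differences by set are given without a test of their own.

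**Figure D3:**
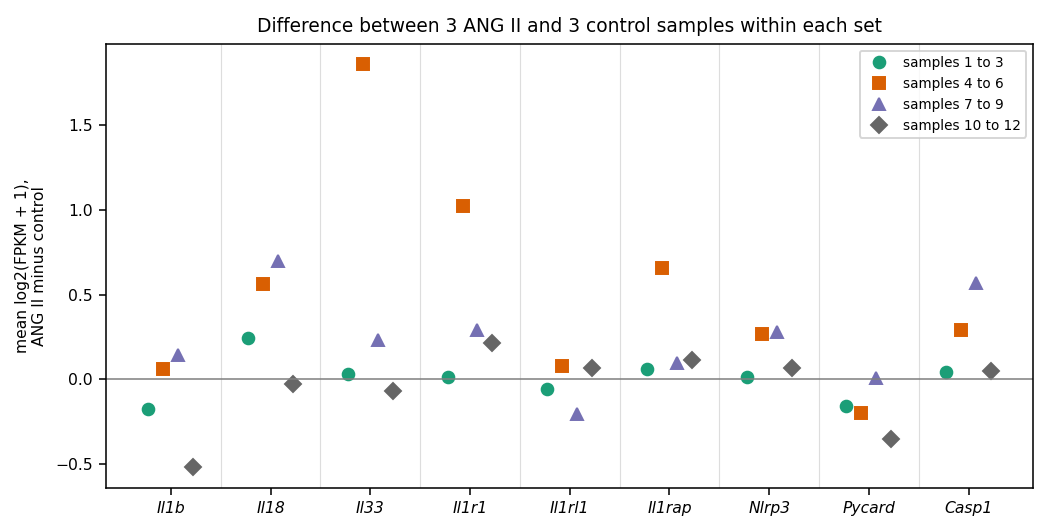
Log2 difference on the log2(FPKM + 1) scale (y axis), hypertensive-LVH (ANG II) minus control, of each of the 9 genes within the 4 sets of samples, shown by colour and shape (3 samples per group and set). Il33 and Il1r1 reach 1.86 and 1.02 in samples 4 to 6, and Il18 reaches 0.70 in samples 7 to 9 and -0.02 in samples 10 to 12.

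Set in order of their mean FPKM, the control group gave Il1r1, Il33, Pycard, Il1b, Casp1, Il1rap, Il18, Il1rl1 and Nlrp3. Each of the 9 lay at or below 5.62 FPKM, under the median of 6.96 of all genes tested. Il1r1 was above Il33 in 12 of 12 control samples and Il1b above Casp1 in 12 of 12, whereas Il33 and Pycard (8 of 12), Pycard and Il1b (8 of 12) and Il18 and Il1rl1 (6 of 12) were not apart in every sample. In the hypertensive-LVH group the order was the same but for 2 places: Casp1 stood before Il1b (above it in 7 of 12 samples) and Nlrp3 before Il1rl1 (6 of 12). Il18, level with Il1rl1 in the control group, was above Nlrp3, the next gene, in 12 of 12 hypertensive-LVH samples. Il33 was above Pycard in 12 of 12 and Il1rap above Il18 in 12 of 12. For ST2 and its ligand the levels were 0.550 FPKM of Il1rl1 beside 3.29 of Il33 in the control group and 0.520 beside 5.11 in the hypertensive-LVH group.

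The other genes of the pathway were taken from 6 lists, of which 102 genes were tested and 34 were higher and 7 lower. The 41 that passed are 40.2% of them, beside 33.5% of all genes, and their median log2 fold change was 0.14. Leaving out the 9 genes described above, 31 of 93 were higher and 7 lower. Listed genes that are not in the table, such as Il36a, Il4 and Il13, were not analysed here. By list, 17.6% of the IL-1 response genes tested passed, 25% of the receptors and accessory chains and 40.7% of the MyD88 and NF-κB genes. The share was 41.7% for ligands, antagonists and processing enzymes, 48% for the inflammasome list and 60% for the ST2 and type 2 list. Of all genes 33.5% passed, 20.9% higher and 12.6% lower. These counts describe the lists and are no test of them. Without samples 4 to 6, 16 of the 102 genes passed the test, a share below the 20.1% of all genes. By list, 0% to 33.3% of the genes tested passed without them, and only the ST2 and type 2 list (33.3%) was above 20.1%. The inflammasome list was at 20%.

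Of the 12 ligands, antagonists and processing enzymes tested, 5 were higher and 0 lower, with a median of 0.22 (2 and 0 without samples 4 to 6). Casp4, the caspase that senses bacterial lipopolysaccharide in the cytosol, rose from 2.499 ± 0.663 to 4.14 ± 1.47 FPKM (SD, n = 12 each; log2 difference 0.53, adjusted p = 0.00314). All 12 hypertensive-LVH samples lay above its control median, and the call held without samples 4 to 6 (0.55, adjusted p = 0.0118). Both soluble antagonists, Il18bp and Il1rn, rose. Il18bp, which binds and neutralizes IL-18, went from 10.1 ± 1.01 to 12.1 ± 1.31 FPKM (0.24, adjusted p = 0.00340; 0.29 and 0.00691 without samples 4 to 6). Il1rn, which occupies the IL-1 receptor without signalling, went from 0.389 ± 0.197 to 0.651 ± 0.300 FPKM (0.24, adjusted p = 0.0376; 0.30 and 0.0526 without them). Il1a, the other agonist of the IL-1 receptor, was at 0.177 ± 0.0789 and 0.118 ± 0.0686 FPKM and did not pass (-0.07, adjusted p = 0.157).

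Of the 8 receptors and accessory chains, 2 were higher and 0 lower, with a median of 0.16 (1 and 0 without samples 4 to 6). Besides Il1r1 this was Il1r2, the decoy receptor that binds IL-1 without signalling, at 0.186 ± 0.187 and 0.559 ± 0.499 FPKM (0.36, adjusted p = 0.0316; 0.46 and 0.0342 without samples 4 to 6). Il1r2 was low, and 4 of its 24 values were below 0 and were set to 0. The IL-18 receptor chains did not pass: Il18r1 had a log2 difference of 0.13 (adjusted p = 0.256) and Il18rap of 0.14 (adjusted p = 0.0992). Sigirr, an inhibitory receptor of the family, had one of -0.08 (adjusted p = 0.593).

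Of the 27 genes of MyD88 and NF-κB signalling, 7 were higher and 4 lower, beside 20.9% and 12.6% of all genes. The median of the list was 0.10. Without samples 4 to 6, 1 was higher and 3 were lower. The genes with the largest rises were Nfkbia, the inhibitor that NF-κB itself induces (38.1 to 54.8 FPKM; 0.51, adjusted p = 0.000391), Nfkbiz, a nuclear relative of it (0.43, adjusted p = 0.00927), and Peli1, an E3 ubiquitin ligase (0.33, adjusted p = 0.0134). Without samples 4 to 6, Nfkbia stayed past the test (0.41, adjusted p = 0.0112), and Nfkbiz (adjusted p = 0.174) and Peli1 (adjusted p = 0.0855) did not. Lower were Tab1, a partner of the kinase TAK1 (-0.26, adjusted p = 0.00663), Mapk14, the stress kinase p38α (-0.23, adjusted p = 0.000759), and Tollip, which restrains signalling of the receptor complex (29.1 to 27.0 FPKM, adjusted p = 0.0467; 0.204 without samples 4 to 6). For Tab1 and Mapk14 all 12 hypertensive-LVH samples lay below the control median, and both calls held without samples 4 to 6 (adjusted p = 0.00867 and 0.00203), as did that of the kinase Irak1 (0.0262), which is named after its values were seen.

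The inflammasome list had 12 of 25 genes higher and 0 lower, with a median of 0.19 (5 and 0 without samples 4 to 6). Panx1, a membrane channel that releases ATP, rose most, from 1.38 ± 0.657 to 3.40 ± 1.25 FPKM (0.90, adjusted p = 0.000356), with 11 of 12 hypertensive-LVH samples above the highest control; the difference was 0.52 without samples 4 to 6 (adjusted p = 0.00650). Panx1 is among the genes the study selected on these samples, so its rise is no independent evidence. Ninj1, which ruptures the plasma membrane late in cell death, rose from 59.4 ± 8.01 to 83.1 ± 9.57 FPKM (0.48, adjusted p = 1.77e-05). Gsdmd, the pore-forming target of caspase-1, did not pass (7.96 and 8.43 FPKM; 0.06, adjusted p = 0.660), and its sign turned to -0.02 after quantile normalization. Nek7, a kinase that NLRP3 needs, had a log2 difference of 0.27 (adjusted p = 0.0705).

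Of the genes that IL-1 is known to induce, 3 of 17 were higher and 0 lower, with a median of 0.12 (0 and 0 without samples 4 to 6). The 3 were Mmp3, a matrix protease (1.19, adjusted p = 0.00868), Saa3, an acute-phase protein (1.11, adjusted p = 0.00927), and Il6 (0.31, adjusted p = 0.0323). Il6 was at 0.206 ± 0.178 FPKM in the control group and 0.516 ± 0.365 in the hypertensive-LVH group, and 1 value of Mmp3 and 5 values of Saa3 were below 0. In the list of ST2 and type 2 response genes 6 of 15 were higher and 3 lower, with a median of 0.34 (3 and 2 without samples 4 to 6). The largest rises were of the receptor chains Il4ra (10.8 ± 2.46 to 17.7 ± 4.76 FPKM, 0.65, adjusted p = 0.000518), Crlf2 (0.43, adjusted p = 0.00348) and Il13ra1 (0.38, adjusted p = 8.61e-05). Without samples 4 to 6 Crlf2 was at 0.31 (adjusted p = 0.0526). Also higher were Mrc1 (0.37, adjusted p = 0.0304) and the secreted chemokines Ccl22 (0.37, adjusted p = 0.00100) and Ccl17 (0.34, adjusted p = 0.00341), named after their values were seen. Lower were secreted products of type 2 responses, Retnla (7.02 to 2.29 FPKM; -1.28, adjusted p = 0.000648), the eotaxin Ccl11 (2.13 to 0.849 FPKM; -0.77, adjusted p = 0.000195) and Ccl24 (-0.50, adjusted p = 0.0102; -0.45 and 0.0772 without samples 4 to 6). Without those samples the calls of Il4ra, Il13ra1, Retnla and Ccl11 held, and the remaining higher gene was the chemokine Ccl22 (adjusted p = 0.0166), named after its values were seen.

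**Figure D4:**
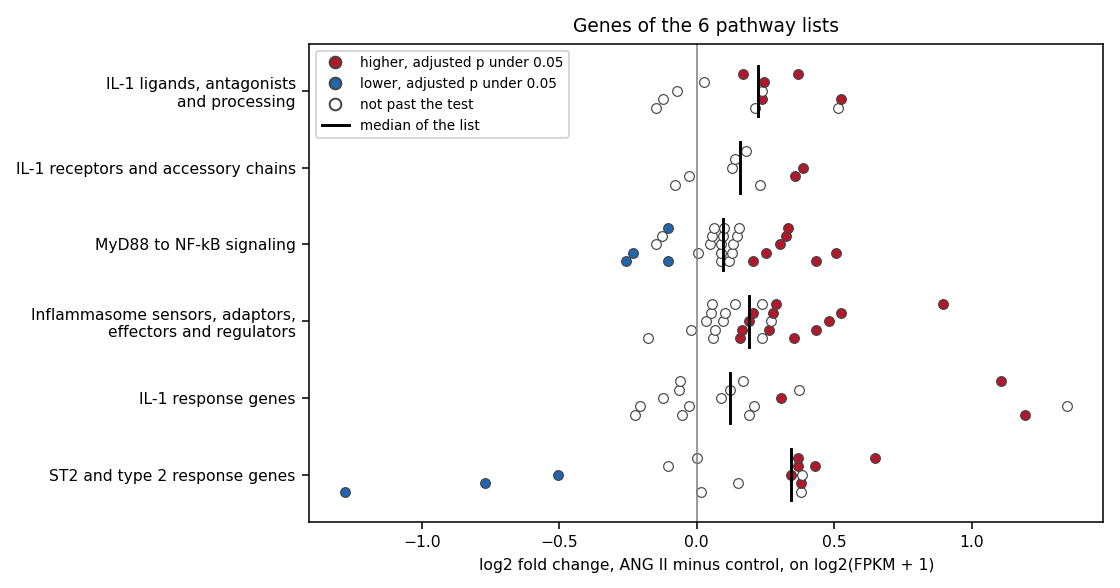
Log2 fold change on the log2(FPKM + 1) scale (x axis), hypertensive-LVH minus control, of the tested genes of the 6 pathway lists (rows, with 8 to 27 genes each); red points are higher and blue points lower at an adjusted p under 0.05, open points did not pass, and bars mark the list medians. The medians lie between 0.10 and 0.34, and lower calls are in the MyD88 to NF-kB and ST2 lists.

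Some cell type markers differed between the groups as well, and many of these calls rested on samples 4 to 6. Of all genes, 33.5% passed with all samples (20.9% higher and 12.6% lower) and 20.1% without samples 4 to 6. The share of markers that passed with all samples was no higher than 33.5% for neutrophils, mast cells, B cells, endothelial cells and atrial myocytes. The same held for T and NK cells and for type 2 innate lymphoid and regulatory T cells. Of 13 macrophage markers 12 were higher and 1, Timd4, was lower, with 3 higher and 1 lower without samples 4 to 6. Their summed level was 291 to 630 FPKM in the control group and 386 to 1118 in the hypertensive-LVH group. Of 8 fibroblast markers 4 were higher and 0 lower (213 to 864 and 620 to 2034 FPKM), and 1 was higher without samples 4 to 6. Of 8 cardiomyocyte markers 0 were higher and 5 lower (44360 to 54830 and 33485 to 47427 FPKM), and 4 were lower without samples 4 to 6, although the sign of 3 of the 8 (Actc1, Myh6 and Tnnt2) turned after quantile normalization. Monocyte markers were higher in 3 of 6 (1 without samples 4 to 6), dendritic cell markers in 5 of 7 (3), T and NK cell markers in 3 of 9 (0), neutrophil markers in 1 of 7 (0) and mast cell markers in 1 of 6 (1), with 0 lower in each. Of 7 markers of type 2 innate lymphoid cells and regulatory T cells, known carriers of ST2, 0 were higher and 2 lower with and without samples 4 to 6 (3.04 to 6.09 and 2.65 to 4.75 FPKM). All 5 red blood cell markers were higher with and without them. Endothelial markers had 1 of 7 higher and 1 lower, smooth muscle and pericyte markers 2 of 8 higher and 2 lower (0 and 2 without samples 4 to 6), B cell markers 0 of 4 higher and 1 lower, and atrial markers 0 of 3 in either direction. In bulk tissue, fewer cells of a type and less RNA per cell cannot be told apart. The part of these shifts in the differences of Il18, Il1r1 and Nlrp3 was not tested.

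Within the groups and sets the genes also varied together. After the mean of each group within each set was removed from log2(FPKM + 1), the 21 pairs among Il1b, Il18, Il33, Il1r1, Il1rap, Nlrp3 and Casp1 had Pearson correlations of 0.42 to 0.83 over the 24 samples, with a median of 0.63. The 15 pairs that include Il1rl1 or Pycard had correlations of -0.35 to 0.40, with a median of 0.12; this split was chosen after the values were seen. With the 2 most extreme samples of each pair left out (by the first gene of the pair), the first range was 0.30 to 0.84 with a median of 0.47 and the second -0.33 to 0.44 with a median of -0.01, so that the ranges overlapped. The highest was that of Il33 with Il1rap (r = 0.83, rho = 0.83, and r = 0.84 without the 2 samples farthest from the median). Il18 with Casp1 came next (r = 0.81, rho = 0.73, and 0.66 without the 2 farthest). The points share libraries, the adjustment by set and the makeup of the tissue, and the correlations are a description.

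The same residuals followed the marker lists. Casp1 and Il1rap went with the mean of the 8 fibroblast markers (r = 0.85 and 0.85, and 0.82 and 0.81 without the 2 farthest samples), and Il18 went against the mean of the 8 cardiomyocyte markers (r = -0.92, and -0.86 without the 2 farthest). These links were not particular to 1 list. Casp1 also had an r of 0.70 with the macrophage and 0.75 with the monocyte markers, and Il18 of 0.80 with the fibroblast markers. Il1b, Il1r1 and Casp1 also went against the cardiomyocyte markers (r = -0.70, -0.67 and -0.65, and -0.43, -0.49 and -0.45 without the 2 farthest). Pycard had an r of 0.65 with the macrophage markers (0.59 without the 2 farthest). Il33 had an r of 0.74 with the fibroblast and 0.74 with the macrophage markers. Il1b had an r of 0.60 with the macrophage markers, which was 0.16 without the 2 farthest samples and so rested on them. Il1rl1 stayed between -0.08 and 0.13 with the macrophage, monocyte, fibroblast, endothelial and cardiomyocyte markers and was at 0.36 with the mast cell markers. Without the 2 farthest samples Il1rl1 had an r of 0.36 with the macrophage, 0.30 with the endothelial, 0.24 with the fibroblast and 0.40 with the mast cell markers.

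**Figure D5:**
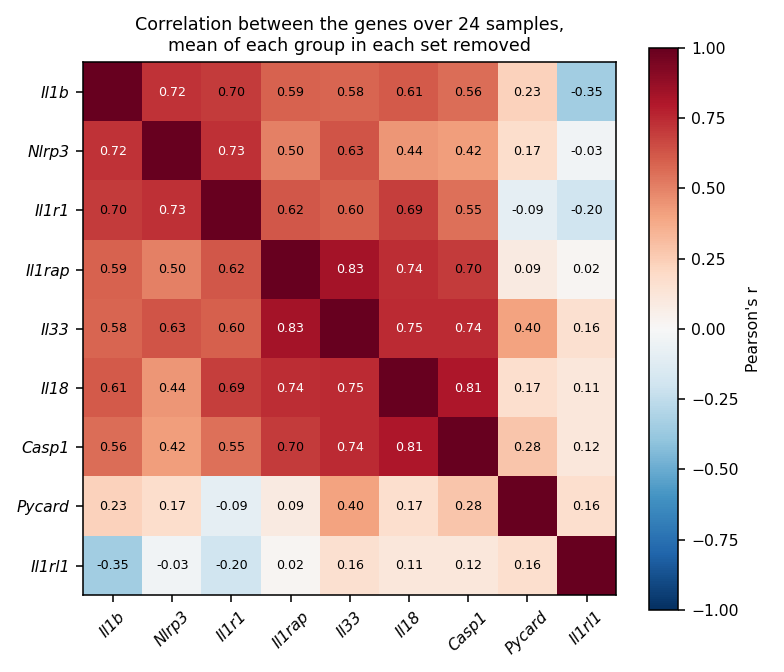
Pearson correlation between the 9 genes (rows and columns) over the 24 samples, on log2(FPKM + 1) after the mean of each group within each set was removed; the colour scale runs from -1 to 1. Correlations among the 7 genes other than Il1rl1 and Pycard run from 0.42 to 0.83, and pairs with Il1rl1 or Pycard from -0.35 to 0.40.

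By the same measure, the gene most like each of the 9 was sought among 11452 genes with a mean of at least 1 FPKM. For the ligands these were Sprr1a for Il1b (r = 0.86), Serp1 for Il18 (r = 0.92) and Crlf3 for Il33 (r = 0.91). For the receptors they were Aim2, a DNA sensor of the inflammasome list, for Il1r1 (r = 0.90), Ncam1 for Il1rap (r = 0.94), ahead of the adhesion molecule Vcam1 (r = 0.90), and Mtpap for Il1rl1 (r = 0.76). For the inflammasome genes they were Cd300a, an inhibitory receptor of myeloid cells, for Nlrp3 (r = 0.86), Coa6 for Pycard (r = 0.83) and Ufm1 for Casp1 (r = 0.92). Il1rl1 had the weakest best match of the 9, and the highest of so many correlations is high in part because it was sought.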

How the data were processed

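The deposited table holds 1 value per gene symbol and sample for 24 samples, and all of its columns were mapped to labelled samples. It was made by the authors from oligo(dT)-enriched paired-end RNA-seq and gives FPKM, treated here as a score because a further adjustment, which the sources used here do not describe, left values below 0 in 8.05% of the genes. HISAT, Bowtie2 and RSEM are named in the submitters' processing notes without versions, and the genome build, annotation and depth are not given in the sources used here. Values below 0 were set to 0, genes with a mean of at least 0.1 FPKM were kept (14026), and log2(FPKM + 1) was compared with limma 3.58.1 in R 4.3.3 (intensity trend, two-sided, Benjamini-Hochberg adjustment over all genes tested). A gene was called at an adjusted p under 0.05. Sets of samples were those of a group tied in at least 100 genes, without genes whose values were all whole hundredths. They were joined across the groups by sample number. Standard errors and intervals are those of the moderated fit. Python 3.11.15 with scipy 1.17.1 was used for summaries, positions came from GENCODE vM21 and promoter sequences from RefSeq.

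The 9 genes, the pathway lists and the marker lists were chosen with earlier results of these data known, and a pattern in them is no independent support. Of each pathway list, up to 3 genes past the test with the largest log2 fold changes in each direction were named, together with genes that bind or compete with one of the 9 and, for likeness, the genes with the highest correlations. Alternatives were another pseudocount, other filters, quantile normalization, median-ratio scaling, no trend, a Wilcoxon rank-sum test, terms for the set or the sample number, and leaving out samples or sets. Protein sequences were not used here.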

Additional observations from a re-analysis of the deposited data

How the results depend on the processing

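Of all genes, 4697 passed the test with all samples, 4038 to 5160 with 1 sample left out, and 2810 without samples 4 to 6. Of the 9 genes, 3 passed with all samples, 2 to 6 with 1 sample left out, 0 without samples 4 to 6 and 1 without samples 7 to 9; the highest count of 6 came without hypertensive-LVH sample 9 or control sample 2, and 5 passed without hypertensive-LVH sample 2 or 10. A minimum mean of 1 FPKM left 1, since it removes Il18, Il1rl1 and Nlrp3 from the genes tested. Of the pathway genes 41 passed with all samples, 32 to 49 with 1 sample left out and 16 without samples 4 to 6. The direction turned for Il1b without samples 10 to 12 (0.00867) and for Il1rl1 without samples 7 to 9 (0.0309). The other 7 genes kept their direction under every alternative listed above. Within single sets the sign turned for Il18 and Il33 (samples 10 to 12) and for Pycard (samples 7 to 9). Il33 passed without hypertensive-LVH sample 9 (0.61, adjusted p = 0.0378) or control sample 2 (0.60, adjusted p = 0.0450). Il1rap and Casp1 each passed in 6 of the 24 fits with 1 sample left out, and Il1rap also after median-ratio scaling (adjusted p = 0.0490) and without samples 1 to 3 (adjusted p = 0.0498). Nlrp3 lost its call in 7 of the 12 alternatives other than leaving out 1 sample. With the set as a term in limma, 2 of the 9 passed, Il18 (adjusted p = 0.0273) and Il1r1 (adjusted p = 0.0264). Nlrp3 did not pass there (adjusted p = 0.0579) or by the Wilcoxon rank-sum test (adjusted p = 0.0558). A gene with an absolute log2 fold change over 0.5 past the test appeared in 5 fits: Il18 with a pseudocount of 0.1 or without samples 10 to 12, Il1r1 without samples 1 to 3, and Il33 in the fits just given. Where samples were left out the fits hold fewer samples; the cause of the other changes was not tested. Same-numbered samples of the 2 groups did not deviate together (12 pairs, correlations of -0.56 to -0.0011, 0 best with their own number). They were placed in the same set by their number, and the mean of each set was not removed, so this cannot tell whether they are paired. With the replicate block 2824 of all genes, 0 of the 9 and 22 pathway genes passed, with adjusted p = 0.0508 for Il18, 0.0550 for Il1r1 and 0.0931 for Nlrp3. The depth is unknown, which limits what the low levels of Il18, Il1rl1 and Nlrp3 can show.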
